A study of Homo sapiens with 4 samples.

Results

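The short arm of chromosome 6 carries, in band 6p22, the largest cluster of replication-dependent histone genes of the human genome, and TEAD4 peaks across it are described here in 2 gastric cancer cell lines. The members are all peaks of both deposited TEAD4 peak lists on chromosome 6 with a midpoint from 26000000 to 28000000 on hg19, a stretch of 2 Mb called the span below. They number 96 of 39477 peaks in MKN28 and 63 of 11540 peaks in SNU216, together 159 of 51017. The members were chosen by position alone, though with earlier results of these data known. TEAD4 was immunoprecipitated from formaldehyde cross-linked, sonicated chromatin of MKN28 and SNU216, both labelled as gastric cancer cells with no treatment or genotype given, and the DNA was sequenced (ChIP-seq). MKN28 is listed in cell line registers as misidentified, a derivative of another gastric cancer line. Each line gave 1 TEAD4 library, and its peaks were called with MACS against 1 input library of the same line that had no antibody. With no replicates, no difference between the lines could be tested. Intervals below are exact 95% Clopper-Pearson intervals that cover counting error only, and neighbouring peaks are not independent. Depth is unknown, since the lists hold positions and a score per peak but no read counts.

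TEAD4 is a DNA-binding protein of the TEA domain family that recruits the co-activators YAP and TAZ, the effectors of the Hippo pathway, to enhancers and promoters. Replication-dependent histone genes encode the linker histone H1 and the core histones H2A, H2B, H3 and H4. They lack introns, are transcribed mainly in S phase, and their mRNAs end in a stem-loop in place of a poly(A) tail. The cluster is broken by other genes. These include HFE, whose product controls iron uptake, the butyrophilin genes, which encode immunoglobulin-like membrane proteins, and many tRNA genes, which RNA polymerase III transcribes.

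In the RefSeq gene order of GRCh38.p14, 53 histone genes lay from H1-1 to H2BC17, with 98 tRNA genes and 15 other protein-coding genes among them. The first run of 32 histone genes, from H1-1 to H4C8, held HFE and no tRNA gene. From H4C8 to BTN3A2 followed 13 tRNA genes. The 6 butyrophilin genes BTN3A2, BTN2A2, BTN3A1, BTN3A3, BTN2A1 and BTN1A1 came next with no tRNA gene between them, and from BTN1A1 to ABT1 there were 13 more. The second run, from H2BC11 to H2AC12, had 5 histone genes and the third, from H2BC13 to H2BC17, had 16, neither with a tRNA gene. Of the tRNA genes, 51 lay between these runs. The peaks are on hg19 and the table is on GRCh38, so this order describes what the cluster holds, and no peak was assigned to a gene.

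The core of the TEAD recognition site, GGAATG, was searched on both strands in the 250 bases before the start of each gene, in RefSeq promoter sequences of GRCh38.p14. Promoters were given for 48 of the 53 histone genes, as 52 sequences. GGAATG was present in 4 of the 52 (7.69%), against 11.9% of 35116 promoters of all genes. The shorter string GGAAT was in 16 of the 52 (30.8%, against 32.2%). No interval was computed for these shares, and with so few matches a lower share of GGAATG was not shown. The AP-1 site TGANTCA was in 1 of the 52 (1.92%, against 6.57%). The CCAAT box, a promoter element bound by the factor NF-Y, was in 45 (86.5%, against 32.0%). The 4 stretches with a GGAATG match are shown because they hold all matches of the TEAD core in these promoter windows. Each is written 5′ to 3′ on the strand of the gene, with the match in capitals (CATTCC is the same core on the other strand).
H2BC3: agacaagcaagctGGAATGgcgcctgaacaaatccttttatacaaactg
H1-3: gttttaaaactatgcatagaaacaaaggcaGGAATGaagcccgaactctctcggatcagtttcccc
H4C8: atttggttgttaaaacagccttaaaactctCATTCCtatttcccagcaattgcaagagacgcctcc
H4C13: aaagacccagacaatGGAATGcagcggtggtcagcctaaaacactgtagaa
The matches began 237, 216, 207 and 235 bases before the start of H2BC3, H1-3, H4C8 and H4C13, genes for H2B, H1 and H4 histones. All of them lay in the distal part of the window. A match is a string of letters and not a measured site, and whether a TEAD4 peak covers any of these promoters was not analysed here.

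The span held more SNU216 peaks than any other 2 Mb window of the genome. On a grid of 1459 windows that held a peak of either list, the median window had 6 SNU216 peaks and the span had 63, while the next window, on chromosome 17 from 36 to 38 Mb, had 44. In MKN28 the median window had 23.0 peaks and the span, with 96, ranked 4. The MKN28 windows above it were on chromosome 20 from 48 to 50 Mb (115 peaks), chromosome 1 from 94 to 96 Mb (107) and chromosome 11 from 64 to 66 Mb (103), and they held 35, 34 and 36 SNU216 peaks. The plot of all windows by both counts places the span apart from these.

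**Figure D1:**
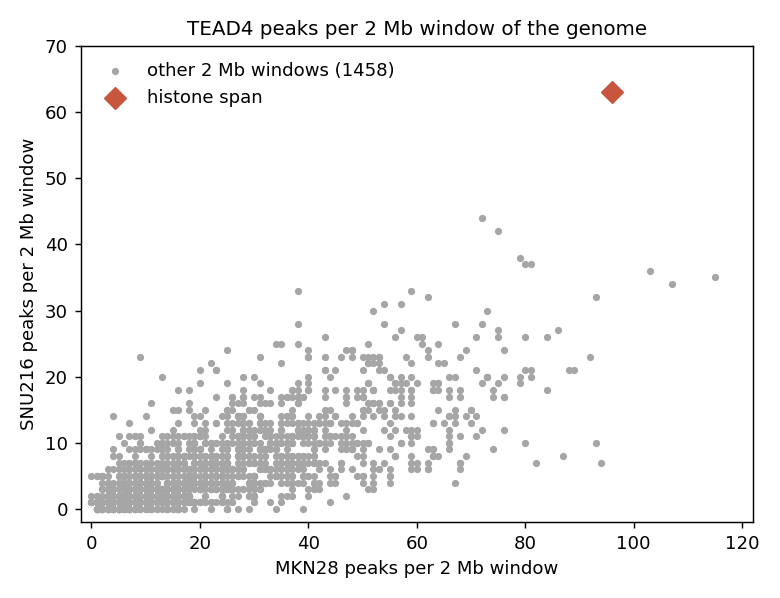
Number of MKN28 peaks (horizontal axis) and SNU216 peaks (vertical axis) in each 2 Mb window of the genome, with the histone span as a diamond and the other 1458 windows as grey points. The span lies at 96 MKN28 and 63 SNU216 peaks, above every other window on the vertical axis.

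SNU216 had a larger part of its list in the span than MKN28, though this was not particular to the span. The share was 0.546% of SNU216 peaks (0.420 to 0.698) and 0.243% of MKN28 peaks (0.197 to 0.297), a ratio of 2.24 (exact conditional interval 1.61 to 3.12). With peaks of a score of at least 100 the ratio was 3.76 (2.38 to 5.93), a cut that kept 42.2% of the SNU216 and 49.9% of the MKN28 list. With an MKN28 list of equal length it was 2.86 (1.74 to 4.89). Of the peaks of both lists in the span, 39.6% were from SNU216. In the chromosome 17 window from 36 to 38 Mb, with 72 MKN28 and 44 SNU216 peaks, 37.9% were. In the windows on chromosomes 20, 1 and 11 with more MKN28 peaks than the span, 23.3%, 24.1% and 25.9% were. Some windows with fewer peaks had as many from SNU216 as from MKN28, such as 22 and 22 in a window of chromosome 1. The sequence on either side held fewer peaks than the span. The stretch after the span was still above the median window, which had 23.0 MKN28 and 6 SNU216 peaks. From 24 to 26 Mb there were 18 MKN28 and 5 SNU216 peaks, a ratio of shares of 0.95 (0.276 to 2.66), and from 28 to 30 Mb there were 50 and 23, a ratio of 1.57 (0.916 to 2.63). The nearest SNU216 peak before the span had a score of 123 and lay 827 kb from its first base, whereas the first one inside, at chr6:26032929-26033415, lay 33.2 kb from it with a score of 163. In MKN28 the last peak before the span scored 176 at 26.6 kb from the bound and the first inside it scored 240. At the other end the last SNU216 peak inside scored 445 and the next one outside scored 119, 181 kb past the bound. The last MKN28 peak inside scored 74.4 and the next outside scored 106.

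Peaks stood closer together in the span than over the whole lists in both lines. A stretch with more peaks has shorter distances even if they are evenly scattered, and grouping beyond this was not tested. The median distance from a midpoint to the nearest midpoint of the same list came to 3.75 kb for MKN28 and 4.47 kb for SNU216, against 11.2 and 29.4 kb over the whole lists. Of the MKN28 members, 56 of 96 (58.3%, 47.8 to 68.3) had a neighbour within 5 kb, against 31.9% of the list. Of the SNU216 members, 35 of 63 did (55.6%, 42.5 to 68.1), against 23.2%. Neither list had a peak from 26.4 to 26.5, from 26.6 to 26.7 or from 26.8 to 26.9 Mb. Gaps of over 100 kb without a peak of either line divided the span into 4 stretches. The first was chr6:26032929-26394843, with 28 MKN28 and 21 SNU216 peaks. The second, chr6:26521349-26577554, was 56.2 kb long and held 9 MKN28 and 11 SNU216 peaks. The third, chr6:26735334-26771437, had 3 and 2, and the last, chr6:26921224-27955065, had 56 and 29.

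**Figure D2:**
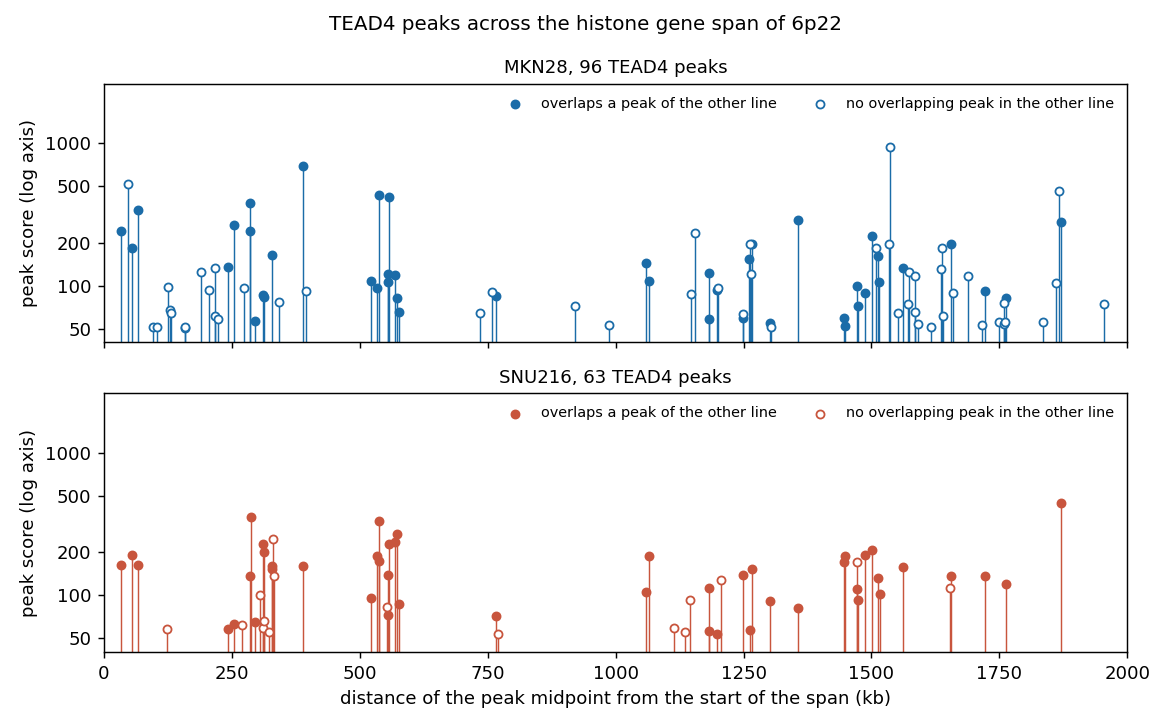
Score of each peak (vertical log axis) against the distance of its midpoint from the start of the span in kb, for 96 MKN28 peaks (top) and 63 SNU216 peaks (bottom). Filled points overlap a peak of the other line by at least 1 bp (45 MKN28 and 47 SNU216 peaks) and open points do not.

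The balance of the lines changed along the span. From 26.1 to 26.2 Mb MKN28 had 7 peaks, none with a counterpart, and SNU216 had 1 peak, with a score of 58.0. From 26.3 to 26.4 Mb SNU216 had 11 peaks and MKN28 had 6, and from 26.5 to 26.6 Mb they had 11 and 9. Only 6 of the 17108 windows of 100 kb that held a peak of either list had 11 or more SNU216 peaks, and these are 2 of them. The cut of 11 is the count of these windows themselves and was set after seeing the data. From 27.5 to 27.6 Mb the order was the other way, with 13 MKN28 and 4 SNU216 peaks. From 27.6 to 27.8 Mb MKN28 had 7 peaks in each of 2 windows and SNU216 had 2 in each. Of 7 windows of the span with 10 or more peaks in all, 4 had at least as many SNU216 as MKN28 peaks. Genome-wide, 13.3% of 526 such windows did. Without the windows at 26.3 and 26.5 Mb, a setting chosen after seeing the data, 41 SNU216 and 81 MKN28 peaks were left and the ratio of shares was 1.73 (1.16 to 2.55).

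**Figure D3:**
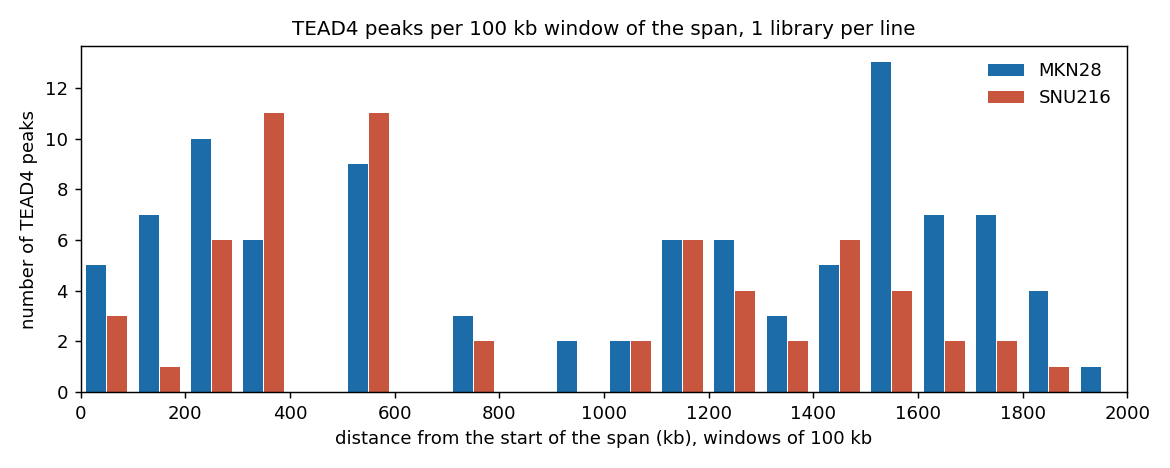
Number of TEAD4 peaks in each 100 kb window of the span, by distance from its start in kb, in MKN28 (blue) and SNU216 (red), with 1 library per line and no error bars. SNU216 has 11 peaks in each of the windows at 300 and 500 kb, where MKN28 has 6 and 9, and MKN28 has 13 against 4 at 1500 kb.

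The median SNU216 peak of the span scored above the median of its list and the median MKN28 peak did not. Among peaks scoring 100 or more, the SNU216 median was not above that of its list. The score is the authors' peak-caller score, so it is read within a list, as a rank. In SNU216 the lowest, median and highest scores were 53.6, 132 and 445, and the median of the whole list was 84.7. In MKN28 they were 50.4, 95 and 933, against a list median of 99.8. The median member stood at the 68.7th percentile of the SNU216 list and at the 47.7th percentile of the MKN28 list. Scores of 100 or more were found for 40 of 63 SNU216 members (63.5%, 50.4 to 75.3), against 42.2% of the list. In MKN28 they were found for 43 of 96 (44.8%, 34.6 to 55.3), against 49.9%. Among peaks with scores of 100 or more, the SNU216 median was 162 in the span (order-statistic interval 139 to 189) and 180 in the list. The MKN28 medians were 183 (134 to 223) and 199. Both intervals held the median of the list, so no difference was detectable among these peaks. SNU216 peaks of the flanking stretches also had medians above that of their list, at 123 from 24 to 26 Mb and 119 from 28 to 30 Mb.

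Of the 8 strongest SNU216 peaks, 7 lay within 286 kb, in chr6:26286572-26572435, and 4 of these were in the short second stretch. The highest of all lay apart from them. This peak, chr6:27870028-27871051, had a score of 445 and was also the widest, at 1024 bp. Its MKN28 partner scored 279. Next came chr6:26286572-26287006 with 353, where MKN28 had 241, and chr6:26537399-26538052 with 330, where MKN28 had 429. The other peaks of the second stretch among the 8 were chr6:26571888-26572435 (SNU216 269, MKN28 82.1), chr6:26568903-26569310 (237 and 118) and chr6:26556560-26557284 (228 and 418). The other 2 were in the first stretch. The peak chr6:26311838-26312304 scored 231 with a partner at 86.2, and chr6:26330367-26330813 scored 250 with no MKN28 counterpart. The highest of the 8 stood at the 94.9th percentile of its list.

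The strongest MKN28 peak of the span had no SNU216 counterpart. It was chr6:27535844-27536657, with a score of 933 at the 97.6th percentile of its list, and the nearest SNU216 peak was 20 kb away. The second, chr6:26388225-26388816, scored 691 and its SNU216 partner scored 160. The third and the fourth were again without a counterpart. They were chr6:26047167-26047727 with a score of 515, 7.42 kb from the nearest SNU216 peak, and chr6:27865503-27866495 with 463. The latter lay 3.53 kb from the highest SNU216 peak of the span. The remaining 4 of the 8 strongest had partners. These were chr6:26537498-26538467 (429, SNU216 330), chr6:26556600-26557410 (418, SNU216 228), chr6:26285479-26286194 (378, SNU216 137) and chr6:26067402-26068100 (340, SNU216 163). The widest MKN28 peak, chr6:26327581-26328722, measured 1142 bp with a score of 165 and covered 2 separate SNU216 peaks, with scores of 161 and 152.

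Most SNU216 peaks of the span had a counterpart in MKN28, and many MKN28 peaks had one in SNU216. Overlap by at least 1 bp was found for 47 of 63 SNU216 members (74.6%, 62.1 to 84.7), against 59.3% of the whole list. It was found for 45 of 96 MKN28 members (46.9%, 36.6 to 57.3), against 17.1%. In the stretch from 28 to 30 Mb the shares were 82.6% of 23 SNU216 peaks (61.2 to 95) and 38% of 50 MKN28 peaks (24.7 to 52.8), so those intervals overlap the ones of the span. From 24 to 26 Mb they were 40% of 5 and 11.1% of 18 (1.38 to 34.7). In the second stretch, 10 of 11 SNU216 peaks overlapped, as did 9 of 9 MKN28 peaks.

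**Figure D4:**
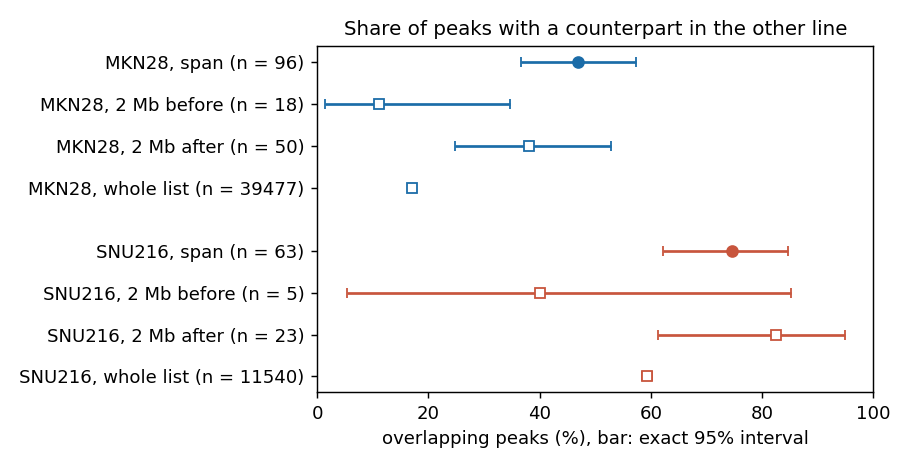
Share of peaks that overlap a peak of the other line by at least 1 bp, in percent, for the span (filled circles), the 2 Mb before and after it and the whole list (open squares), with exact 95% intervals for counting error. In the span 46.9% of MKN28 peaks overlap, against 17.1% of the list, and 74.6% of SNU216 peaks, against 59.3%.

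The MKN28 share was above that of its list at every level of score. The SNU216 share was no longer above that of its list when weak peaks were left out of the MKN28 list or of both lists. By score, each whole list was cut into 4 groups of near-equal size. Among MKN28 members of the lowest-scoring group, 6 of 26 overlapped (23.1%, 8.97 to 43.6), against 5.16% of that group in the whole list. The counts for the next groups were 11 of 26 (42.3%, against 8.66%), 17 of 29 (58.6%, against 17.4%) and 11 of 15 (73.3%, 44.9 to 92.2, against 37.2%). In SNU216 the 4 groups gave 4 of 10, 5 of 8, 17 of 22 and 21 of 23, or 40%, 62.5%, 77.3% and 91.3%, against 31.1%, 51.8%, 68.9% and 85.2%. Each of these SNU216 differences was within the counting interval. With a score of at least 100 required in both lists, 57.5% of the SNU216 members overlapped (40.9 to 73.0), against 68.7% of the list. With an MKN28 list of equal length 23.8% did (14 to 36.2), against 36.1%. Both intervals held the value of the list, whereas with the full lists the interval of the span lay above it. The MKN28 share kept its direction, at 48.8% against 16.8% and 63.6% against 35.2%. This share rises with the number of SNU216 peaks in the span, so it is not separate from the ratio of shares given above. How much of it goes beyond that number was not tested.

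With the full lists, scores of overlapping peaks were closer to parity in the span than genome-wide. The MKN28 partners of the 47 overlapping SNU216 peaks had a median score of 120, and the SNU216 peaks themselves 139. Over all 6841 overlapping SNU216 peaks these medians were 230 and 115. The SNU216 peak scored higher than its best MKN28 partner in 22 of 47 pairs (46.8%, 32.1 to 61.9), against 24.7% over the list. By rank within the own list, the SNU216 peak stood higher in 30 of 47 (63.8%, 48.5 to 77.3), against 32.9%. The ratio of SNU216 to MKN28 score had a median of 0.975, with quartiles of 0.685 and 1.54, and the median over the list was 0.565. Since 2 MKN28 peaks were each the partner of 2 SNU216 peaks, the 47 pairs rest on 45 MKN28 peaks. With scores of at least 100 required, 30.4% of SNU216 peaks in pairs scored higher (13.2 to 52.9), against 24% of the list, and with an MKN28 list of equal length 20% did (4.33 to 48.1), against 9.58%. Both intervals held the value of the list, so the difference was not detectable under those settings. Scores of both lists depend on depth, which is not known, so the ratios describe these libraries.

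The ratio varied more than 10-fold within the span, from 0.232 to 3.64. Over the 6841 pairs of the whole list the range was wider, from 0.0246 to 23.0. All 5 pairs from 27.4 to 27.5 Mb had the higher score in SNU216, with ratios from 1.11 to 3.64. The highest was at chr6:27447194-27447705, with 189 in SNU216 and 52.0 in MKN28. Beside it, at chr6:27446478-27446825, the scores were 172 and 59.8. From 26.5 to 26.6 Mb 5 of 10 pairs were higher in SNU216, with ratios from 0.404 to 3.28. The lowest ratio, 0.232, was that of chr6:26388170-26388697, where SNU216 had 160 and MKN28 691. At chr6:26253517-26253833 it was 0.239, with 63.5 and 265. In the first 300 kb of the span 3 of 8 pairs were higher in SNU216.

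**Figure D5:**
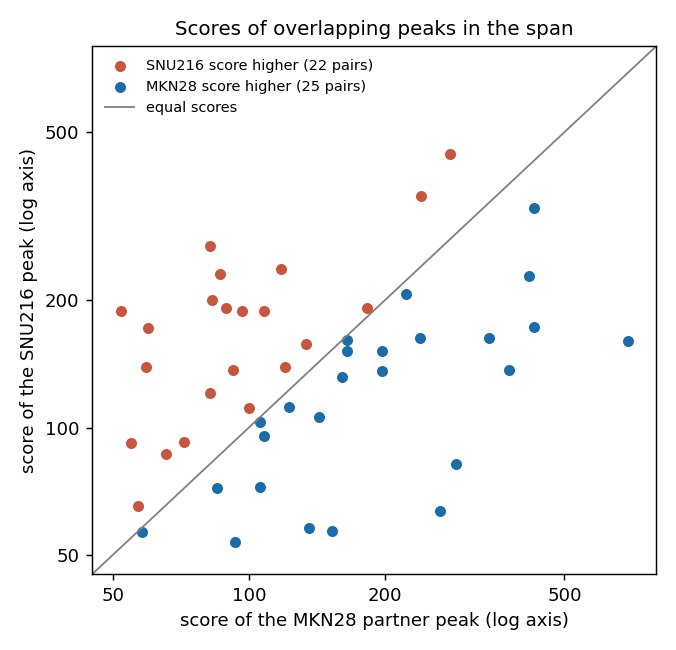
Score of each of the 47 overlapping SNU216 peaks of the span (vertical log axis) against that of its best MKN28 partner (horizontal log axis), with a line at equal scores. In 22 pairs the SNU216 score is higher (red, above the line) and in 25 the MKN28 score is higher (blue).

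Peaks of the span without a counterpart scored lower than those with one, as they did in the whole lists, and more of them lay near a peak of the other line than in the whole lists. The 16 SNU216 members without overlap had a median score of 74.7, against 139 for the 47 with it, and these medians were 64.8 and 115 over the list. Of the 16, 12 lay within 5 kb of an MKN28 peak (75%, 47.6 to 92.7), against 23.3% of such peaks in the list. The strongest after chr6:26330367-26330813 were chr6:27471295-27471790 (score 171, 0.156 kb from an MKN28 peak), chr6:26331596-26331954 (136, 2.87 kb) and chr6:27205191-27205587 (128, 5.76 kb). The 51 MKN28 members without overlap had a median score of 75.7, against 118 for the 45 with it, and over the list these medians were 88.6 and 226. Of the 51, 15 lay within 5 kb of an SNU216 peak (29.4%, 17.5 to 43.8), against 8.45%. Peaks of both lines stood closer together in the span, as given above, and the part of this spacing in these counts was not tested. Their median gap to the nearest SNU216 peak was 11.9 kb, against 2.90 kb in the other direction. The fourth strongest, chr6:27155191-27155802, scored 232 and lay 10 kb from one. A site absent from a list had no peak past the caller's threshold, which is no measure of absent binding.

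Peak widths in the span were close to those of the lists. The median width was 507 bp in MKN28 (range 230 to 1142), against 525 bp, and 408 bp in SNU216 (241 to 1024), against 408 bp. Relative to peaks with similar scores from its own list, the median member was 1.03 times as wide in MKN28 and 0.943 times in SNU216. The peaks covered 51.2 kb of the 2 Mb in MKN28 and 26.4 kb in SNU216.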

How the data were processed

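Peaks of 1 TEAD4 ChIP-seq library each of MKN28 and SNU216 were analysed. Per the submitters' processing notes, the tools were CASAVA 1.8, MACS and Bowtie2 2.0.0 on hg19. Their settings and the version of MACS are not stated there. From them the authors deposited 1 peak list per line with a score per peak, of at least 50.0, whose scale neither the labels nor the lists state. Such a score rises with depth, so it was ranked within each list.

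Positions were made 1-based. Members were peaks with a midpoint in the span. Overlap meant at least 1 shared bp, and the best partner was the highest-scoring one. Width was compared with the median width of its group when the list was cut into 50 groups by score rank. The peaks named are the 8 strongest, the 4 strongest without overlap and the widest of each list, and others named in the text were chosen after their values were seen. Alternatives were a score of at least 100, an MKN28 list of 11540 peaks, overlap of 50% of both peaks, and midpoints within 200 bp. Gene positions and sequence of hg19 were not used here, so planned counts of histone gene starts with a peak and of motifs in peaks were not made, and the motifs were searched in promoters. Members and lists were chosen with earlier results of these data known. The code ran under Python 3.11.15 with scipy 1.17.1, pandas 2.3.3, numpy 2.4.6 and matplotlib 3.10.9, and the overlap code was checked on planted peaks. Input libraries entered only through the calls of the authors.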

Additional observations from a re-analysis of the deposited data

How the results depend on the processing

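When only peaks scoring 100 or more were kept, 43 MKN28 and 40 SNU216 peaks were left in the span, the ratio of shares was 3.76, the SNU216 overlap was 57.5%, and 30.4% of overlapping SNU216 peaks scored above their partner (13.2 to 52.9, against 24% over the lists). Median scores were then 183 in MKN28 (134 to 223) and 162 in SNU216 (139 to 189), with intervals that held the list medians of 199 and 180. Median widths were 596 and 466 bp. With the MKN28 list at the length of the SNU216 list, 22 MKN28 peaks were left (median score 253, median width 704 bp), 23.8% of SNU216 and 63.6% of MKN28 members overlapped, and 20% of SNU216 peaks scored above their partner (4.33 to 48.1, against 9.58% over the lists). In both settings the SNU216 overlap turned from above its list (74.6% against 59.3%) to below it (57.5% against 68.7%, and 23.8% against 36.1%). Higher medians and lower counts follow from dropping weak peaks. Asking for 50% of both peaks gave an SNU216 overlap of 61.9%, against 48.2% of the list. Without the windows at 26.3 and 26.5 Mb, added after seeing the data, 41 SNU216 peaks were left. Of 36 recomputed values, 19 stayed within 1.5 times the count or within the main interval and 17 moved. The 19 include the SNU216 count, median score and median width with the shortened MKN28 list, which that setting cannot change. Some of the 17 moved only because weak peaks were dropped, so the tally is no measure of robustness. The ratio of shares was above 1 in each of its 3 alternatives, from 1.73 to 3.76. Alternatives based on hg19 gene positions, gene starts or genome sequence were not run. Leaving out a replicate does not apply with 1 library per line. No paired analysis was possible because the lines have 1 TEAD4 library each, with no numbered replicates. Peaks present in only 1 of the lists cannot be separated from a difference in depth.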
